A study of Sus scrofa with 12 samples.

Results

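The cell cycle and DNA replication genes are a set of 45 genes named by symbol, 16 that act in or on the way into DNA synthesis (S phase) and 29 that act around mitosis. They were taken from the table of gene counts by matching pig Ensembl gene IDs to these symbols, and 39 of the 45 had a row among the 24358 genes of the table. Of the S phase genes 12 of 16 were found, and of the mitotic genes 27 of 29. All 39 had enough counts to be tested. RRM2, PCNA, MCM5, GINS2, CCNA2 and AURKA have no ID in the supplied table of gene names and were not analysed here.

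A dividing cell copies its DNA once in S phase and shares the copies out in mitosis. The S phase genes load and run the replicative helicase and make DNA building blocks, under E2F transcription factors and cyclin E. The mitotic genes, many of them driven by FOXM1 and MYBL2, build the spindle, hold and check the attachment of chromosomes, and time the exit from mitosis. In adipose tissue mature adipocytes store lipid and rarely divide, while precursor, immune and vascular cells can divide, so in whole tissue these transcripts can come from any of them.

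RNA came from subcutaneous fat of the mid-back of 2 breeds of pig, Guangdong small-eared pigs (GS) and, set against them, Yorkshire pigs (YK), at ages of 80 d and 9 d. The groups are written GS_80d, YK_80d, GS_9d and YK_9d, with 3 libraries each and 12 in all. All samples carry the genotype label WT, no treatment is named, and the cell type is entered as adipocyte although the source is whole adipose tissue. Nothing in the labels says that the samples of a group came from separate animals, so the p-values speak of the spread among these libraries, and that spread may be technical.

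The library totals ran from 45435480 to 60993349 units, at about 3.76 units per sequenced fragment, and 14789 to 16215 genes were above 0. Markers of adipocytes were present in every library: none of 8 was at 0, and ADIPOQ, the gene for adiponectin, ran from 2545 to 11758 CPM, counts scaled to a common library total. Libraries also differed in transcripts of other cells. YK_80d replicates 2 and 3 held the most T and NK cell transcripts, and YK_80d replicate 3, GS_9d replicate 3 and YK_9d replicate 1 the most skeletal muscle transcripts. Skin markers summed highest in YK_9d replicates 2 and 3 (91.3 and 109 CPM), and epithelium markers in YK_80d replicates 1 and 3 (557 and 267 CPM). The tissue was measured in bulk, so fewer cells of a type and less RNA per cell cannot be told apart.

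Levels are CPM with TMM library scaling and stand in the order of replicates 1, 2 and 3. At this depth 1 CPM was about 12.5 to 17.4 fragments, and the median over libraries ran from 11.5 fragments for CDC6 to 1348 fragments for MCM7. No gene lengths were used, so each gene is compared with itself across libraries. For the summaries, log2 CPM was centred on the gene's mean over the 12 libraries.

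Among the S phase genes, most had their highest levels in YK_80d replicates 2 and 3. TYMS, which makes thymidylate for DNA, was at 1.25, 2.11 and 2.65 CPM in GS_80d, 2.38, 13.2 and 16.2 CPM in YK_80d, 4.94, 3.89 and 3.44 CPM in GS_9d, and 4.21, 3.11 and 5.01 CPM in YK_9d. YK_80d replicates 2 and 3 stood above every other library, while YK_80d replicate 1 lay among the GS_80d libraries. The helicase subunit MCM6 was at 8.07, 9.20 and 12.6 CPM in GS_80d, 14.8, 36.5 and 37.9 CPM in YK_80d, 15.4, 20.4 and 16.8 CPM in GS_9d, and 17.2, 21.1 and 36.8 CPM in YK_9d. For MCM6 the 3 GS_80d libraries were the lowest of all 12, so the breeds did not overlap at 80 d.

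The subunits MCM2, MCM3 and MCM4 had the form seen for TYMS. MCM2 was at 3.88, 3.93 and 2.72 CPM in GS_80d, 2.79, 13.7 and 14.7 CPM in YK_80d, 6.90, 3.97 and 5.51 CPM in GS_9d, and 4.42, 7.19 and 9.91 CPM in YK_9d. For each of the 3 genes YK_80d replicate 1 was within or below the range of GS_80d, and YK_80d replicates 2 and 3 were the highest libraries of the series. CDT1 and CDC6, which load the helicase on DNA, were near the detection limit in some libraries. CDT1 had no fragment in GS_80d replicate 1, a level of up to 0.205 CPM by the limit of 3 fragments, and was at 0.0633 and 0.369 CPM in the other GS_80d libraries, against 0.255, 2.91 and 4.72 CPM in YK_80d. It was at 2.30, 0.690 and 0.466 CPM in GS_9d and at 1.71, 2.84 and 1.50 CPM in YK_9d, so that 2 of the GS_80d libraries were the lowest of the series.

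E2F1, a transcription factor of S phase genes, was at 0.454, 0.523 and 1.41 CPM in GS_80d, 0.617, 3.23 and 2.71 CPM in YK_80d, 0.908, 0.556 and 0.897 CPM in GS_9d, and 1.62, 2.02 and 1.62 CPM in YK_9d. The breeds overlapped at 80 d and did not overlap at 9 d, where GS was lower. Another part of the S phase genes did not have this form.

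MCM7, also a helicase subunit, was at 74.1, 69.5 and 64.9 CPM in GS_80d, 118, 87.1 and 103 CPM in YK_80d, 119, 103 and 97.8 CPM in GS_9d, and 108, 88.6 and 98.4 CPM in YK_9d. Its GS_80d libraries were the lowest of the 12, and within YK_80d replicate 1 was the highest. RRM1, the large subunit of ribonucleotide reductase, ranged over 25.6 to 36.8 CPM in GS_80d and 24.3 to 35.2 CPM in YK_80d, and the 4 groups overlapped. The 2 cyclins E, which switch on CDK2 at the entry into S phase, differed from each other.

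CCNE1 was at 6.40, 4.75 and 5.36 CPM in GS_80d, 2.98, 4.22 and 5.26 CPM in YK_80d, 5.17, 6.76 and 7.43 CPM in GS_9d, and 3.09, 4.02 and 4.82 CPM in YK_9d. CCNE2 was at 7.86, 4.56 and 5.96 CPM in GS_80d, 6.75, 11.5 and 4.88 CPM in YK_80d, 9.78, 4.16 and 9.35 CPM in GS_9d, and 3.09, 4.44 and 2.82 CPM in YK_9d. CCNE1 was higher in every GS_9d library than in any YK_9d library, and CCNE2 was higher in every YK_80d library than in any YK_9d library.

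**Figure D1:**
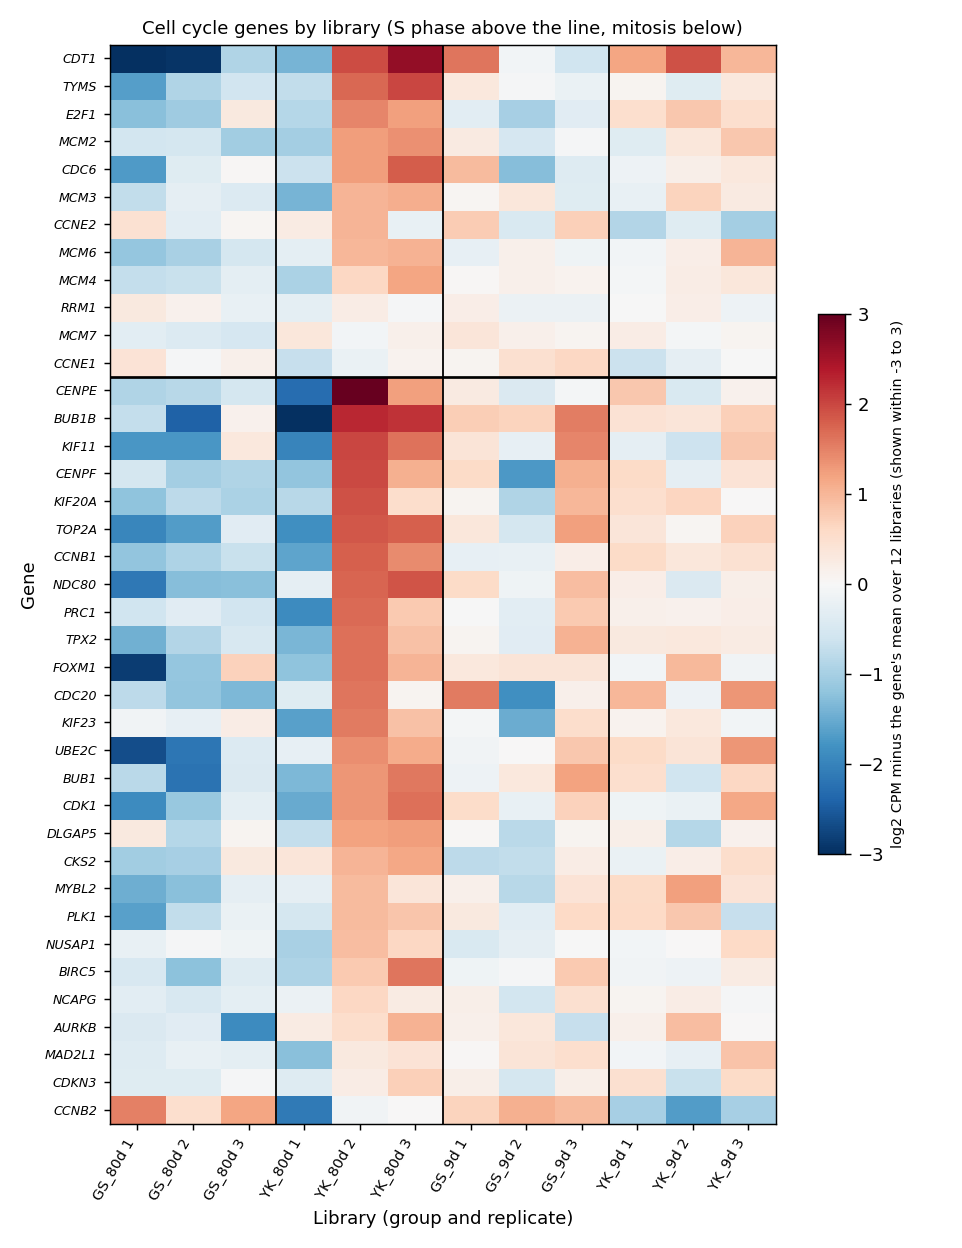
Rows are the 39 measured genes (12 S phase genes above the black line, 27 mitotic genes below it, ordered by their value in YK_80d replicate 2) and columns are the 12 libraries in the order GS_80d, YK_80d, GS_9d and YK_9d. Colour is log2 CPM minus the gene's mean over the 12 libraries, shown within -3 to 3. YK_80d replicates 2 and 3 are red for most rows, YK_80d replicate 1 and the GS_80d libraries are blue for most, and CCNB2 at the foot runs the other way in GS_80d.

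The mitotic genes had the same libraries at the top. CDK1, the kinase that drives entry into mitosis, was at 0.617, 1.06 and 1.91 CPM in GS_80d, 0.809, 5.97 and 7.49 CPM in YK_80d, 3.49, 2.03 and 3.87 CPM in GS_9d, and 2.16, 2.04 and 5.35 CPM in YK_9d. Its partner cyclin B1, CCNB1, was at 1.60, 1.93 and 2.32 CPM in GS_80d, 1.21, 12.9 and 9.91 CPM in YK_80d, 3.11, 3.18 and 4.27 CPM in GS_9d, and 5.54, 4.67 and 5.07 CPM in YK_9d. For both genes YK_80d spanned the range from within or below GS_80d to the highest of the series, so the breeds overlapped at 80 d.

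CCNB2, the other cyclin B of this set, ran the other way. It was at 17.9, 8.82 and 14.3 CPM in GS_80d, 1.41, 5.77 and 6.23 CPM in YK_80d, 9.85, 13.0 and 12 CPM in GS_9d, and 3.12, 1.92 and 3.12 CPM in YK_9d. Every GS library was above every YK library at both ages. CKS2, a small protein that binds cyclin-dependent kinases, was at 4.57, 4.70 and 11.6 CPM in GS_80d, 12.1, 19.1 and 21.2 CPM in YK_80d, 5.48, 5.63 and 11 CPM in GS_9d, and 8.21, 10.9 and 13.6 CPM in YK_9d. The CKS2 values of the breeds did not overlap at 80 d, GS_80d being lower.

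Of the kinetochore and spindle checkpoint genes, CENPE and BUB1B had the widest spread within YK_80d. NDC80, a microtubule-binding kinetochore protein, was at 0.218, 0.428 and 0.436 CPM in GS_80d, 0.894, 3.73 and 4.10 CPM in YK_80d, 1.62, 0.996 and 2.10 CPM in GS_9d, and 1.25, 0.792 and 1.24 CPM in YK_9d. The GS_80d values rest on about 3, 7 and 7 fragments, and they were the lowest of the 12 libraries. CENPE, a kinetochore motor, was at 1.49, 1.58 and 1.96 CPM in GS_80d, 0.554, 23.7 and 6.73 CPM in YK_80d, 3.39, 2.07 and 2.69 CPM in GS_9d, and 4.94, 2.06 and 3.10 CPM in YK_9d. BUB1B, a component of the spindle checkpoint, had no fragment in YK_80d replicate 1, a level of up to 0.240 CPM by the limit of 3 fragments, and was at 10.2 and 9.62 CPM in the other YK_80d libraries, against 1.27, 0.364 and 2.30 CPM in GS_80d. For both CENPE and BUB1B YK_80d held the lowest library of the series as well as the highest.

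TOP2A, which untangles DNA, was at 2.63, 3.20 and 8.16 CPM in GS_80d, 2.85, 37.4 and 35.9 CPM in YK_80d, 13.0, 7.13 and 24.4 CPM in GS_9d, and 13.2, 10.8 and 16.7 CPM in YK_9d. UBE2C, which feeds ubiquitin to the anaphase-promoting complex, was at 0.454, 0.649 and 2.30 CPM in GS_80d, 2.60, 8.17 and 6.64 CPM in YK_80d, 2.85, 3.08 and 5.4 CPM in GS_9d, and 4.57, 4.0 and 7.78 CPM in YK_9d. UBE2C was lowest in the 3 GS_80d libraries, whereas for TOP2A 1 YK_80d library lay among them. AURKB, the kinase of the chromosomal passenger complex, was at 2.70, 2.90 and 0.957 CPM in GS_80d, 4.32, 5.28 and 7.60 CPM in YK_80d, 4.09, 4.64 and 2.24 CPM in GS_9d, and 4.08, 6.94 and 3.69 CPM in YK_9d. Its breeds did not overlap at 80 d, with GS_80d lower.

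The mitotic kinase PLK1 was at 0.889, 1.68 and 2.45 CPM in GS_80d, 1.96, 5.48 and 5.07 CPM in YK_80d, 3.49, 2.26 and 4.32 CPM in GS_9d, and 4.28, 5.0 and 1.72 CPM in YK_9d. All 4 groups overlapped for PLK1. The transcription factor FOXM1 was at 0.145, 0.554 and 2.08 CPM in GS_80d, 0.532, 4.09 and 2.63 CPM in YK_80d, 1.59, 1.67 and 1.69 CPM in GS_9d, and 1.21, 2.54 and 1.18 CPM in YK_9d. MYBL2, a transcription factor of the same programme, was at 2.96, 3.45 and 6.88 CPM in GS_80d, 6.86, 16.1 and 10.6 CPM in YK_80d, 9.27, 4.64 and 11 CPM in GS_9d, and 12.3, 19.5 and 11.1 CPM in YK_9d. MYBL2 was higher in every YK_9d library than in any GS_9d library, and at 80 d GS_80d replicate 3 and YK_80d replicate 1 were level.

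CDKN3, a phosphatase acting on cyclin-dependent kinases, was at 1.22, 1.22 and 1.54 CPM in GS_80d, 1.19, 1.83 and 2.63 CPM in YK_80d, 1.78, 1.09 and 1.79 CPM in GS_9d, and 2.20, 0.980 and 2.37 CPM in YK_9d. All 4 groups overlapped for CDKN3, which ranged from 0.980 to 2.63 CPM over the series.

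**Figure D2:**
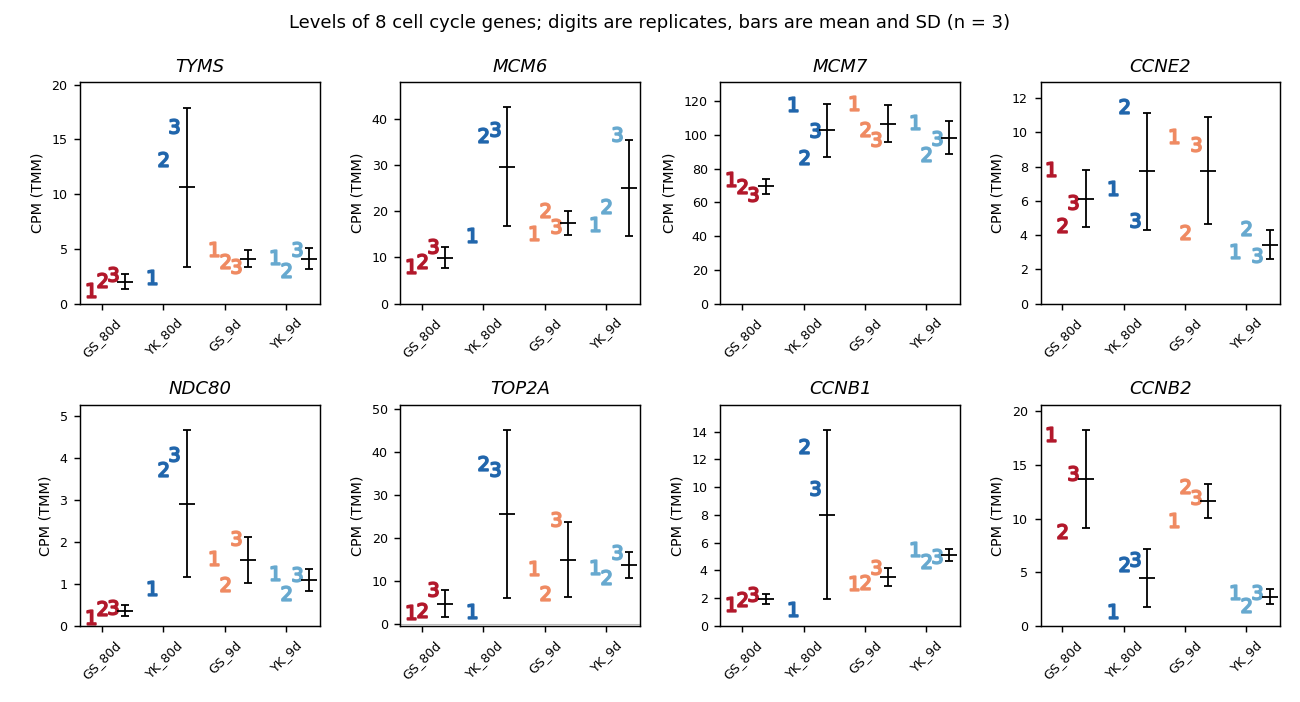
Each panel plots the CPM of 1 gene (linear axis) in GS_80d, YK_80d, GS_9d and YK_9d; digits mark the replicate and the bar beside them is the mean and SD (n = 3). In the YK_80d group of TYMS, TOP2A and CCNB1 replicate 1 lies far below replicates 2 and 3, in MCM7 it lies above them, and CCNB2 is higher in GS at both ages.

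The median centred level summarises the whole set in each library. For the S phase genes it was -0.73, -0.47 and -0.35 in GS_80d, -0.71, 1.01 and 1.13 in YK_80d, 0.24, -0.05 and -0.14 in GS_9d, and -0.07, 0.20 and 0.32 in YK_9d on the log2 scale. For the mitotic genes it was -0.81, -0.92 and -0.30 in GS_80d, -1.19, 1.40 and 1.04 in YK_80d, 0.16, -0.32 and 0.61 in GS_9d, and 0.20, 0.06 and 0.41 in YK_9d. Both medians put YK_80d replicates 2 and 3 at the top of the 12 libraries and YK_80d replicate 1 within or below the range of the GS_80d libraries.

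The S phase median minus the mitotic median was at most 0.48 away from 0 in 11 of 12 libraries on the log2 scale. The exception was GS_9d replicate 3 at -0.75, where the mitotic median was positive and the S phase median negative. In YK_80d the difference was 0.48, -0.39 and 0.09, so the 3 libraries of that group stood on different sides of 0.

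The summed level of the 39 genes was 232 to 266 CPM in GS_80d, 267 to 631 CPM in YK_80d, 312 to 423 CPM in GS_9d and 359 to 419 CPM in YK_9d. The 22 gene IDs listed as T and NK cell markers summed to 168 to 208 CPM in GS_80d, 281, 705 and 1089 CPM in YK_80d, 125 to 276 CPM in GS_9d and 81.3 to 87.3 CPM in YK_9d. CD3E, a chain of the T cell receptor complex, was at 3.90, 3.60 and 6.90 CPM in GS_80d and at 4.24, 29.5 and 29.2 CPM in YK_80d. In YK_80d replicate 1, 2 of the 22 (GZMK and IL7R) were at 0, in YK_80d replicates 2 and 3 none was, and up to 3 were in the other libraries. The T and NK cell markers were thus high in the same 2 YK_80d libraries as the cell cycle genes. Within YK_80d other lists were split as well. Macrophage markers summed to 224, 545 and 566 CPM, and 8 of 10 were lowest in replicate 1. The median centred level of 13 B cell and plasma cell markers was -0.09, 1.01 and 1.19, while their sums were 152, 120 and 303 CPM. Adipose progenitor markers summed to 9247, 21538 and 9601 CPM and endothelial markers to 1197, 2544 and 1451 CPM, both highest in replicate 2. The part of these cells in the levels was not tested. At 9 d the T and NK cell markers and the cell cycle genes did not share this order. The T and NK cell sums of YK_9d were the lowest of the series while its cell cycle sums lay above those of GS_80d. YK_9d and GS_80d differ in both breed and age, and their macrophage sums were 698 to 951 and 191 to 402 CPM. The part of any cell type in this contrast was not tested.

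**Figure D3:**
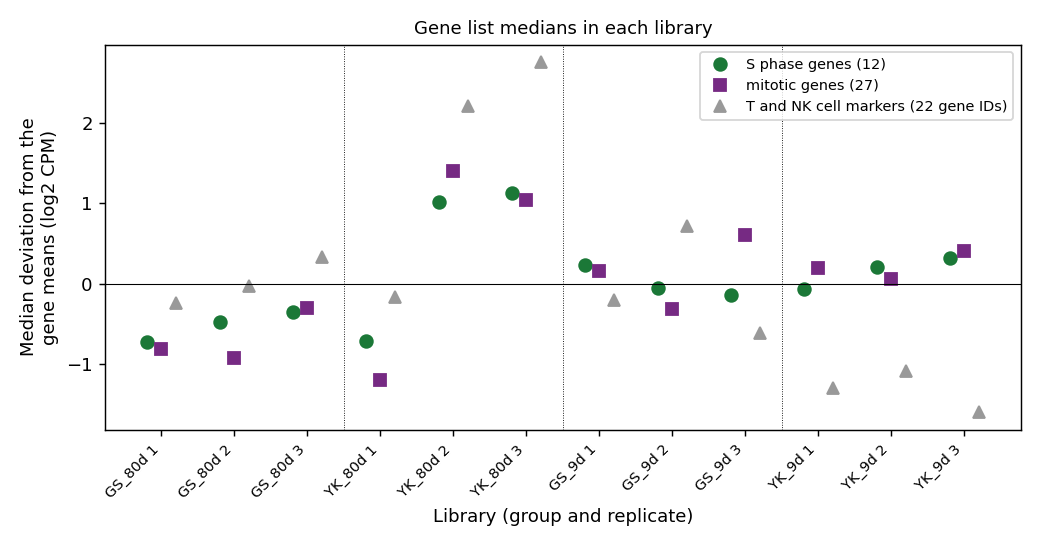
The vertical axis is the median over a gene list of log2 CPM minus each gene's mean, and the 12 libraries run along the horizontal axis; circles are the 12 S phase genes, squares the 27 mitotic genes and triangles the 22 T and NK cell marker IDs. In YK_80d replicates 2 and 3 all 3 symbols are above 1, and in YK_9d the triangles are below -1 with circles and squares near 0.

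Within YK_80d the libraries were compared one by one. Replicate 1 was the lowest of the group for 37 of 39 genes (94.9%), against 33.4% of all genes tested. The exceptions were the S phase genes MCM7 and CCNE2. Over the 39 genes the median log2 difference was 2.01 for replicate 2 minus replicate 1 and 2.13 for replicate 3 minus replicate 1, against -0.01 and 0.00 over all genes tested. The gap between the lowest and the highest library of the group exceeded 1 on the log2 scale for 33 of 39 genes (84.6%), against 41.5% of all genes.

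The median gap was 2.32 in YK_80d, compared with 0.85 in GS_80d, 0.92 in GS_9d and 0.69 in YK_9d, where the median over all genes was 0.84, 0.50, 0.68 and 0.81. Of the 39 genes 18 had their highest library in YK_80d replicate 2 (2 S phase and 16 mitotic genes) and 15 in YK_80d replicate 3 (7 S phase and 8 mitotic genes). Of all genes tested 6.43% were highest in YK_80d replicate 2 and 10.4% in YK_80d replicate 3. YK_80d replicate 1 was the highest library for none (10.1% of all genes) and the lowest for 13 (11.7% of all genes). GS_80d replicate 1 was the lowest for 15 (11.4% of all genes). Set against GS_80d, YK_80d replicate 1 was above all 3 GS_80d libraries for 8 of 39 genes and below all 3 for 15. The share of all genes below all 3 was not computed. Replicates 2 and 3 were above all 3 for 36 and 35 genes, while of all genes tested 33.0% to 36.4% were above in each of these libraries.

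Replicates 2 and 3 of YK_80d were both high but not alike gene by gene. Their CPM ratios are given with exact 95% intervals on the estimated fragments, which cover counting error only. Of the mitotic genes 17 of 27 were higher in replicate 2 than in replicate 3, and the interval lay above 1 for 13 and below 1 for 2. Of the S phase genes 3 of 12 were higher in replicate 2, with the interval above 1 for 2 and below 1 for 4. Over all genes tested 49.0% were higher in replicate 2. The intervals were not computed for all genes, so the interval counts have no share of all genes beside them. Over the whole table these 2 libraries also differed by more than counting error (chi-square per degree of freedom 130).

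The genes furthest toward replicate 2 were CENPE, CDC20 and KIF20A. CENPE was 3.54 times as high in replicate 2 as in replicate 3 (interval 2.80 to 4.53). CDC20, the activator of the anaphase-promoting complex, was at 7.09, 27.9 and 9.69 CPM in YK_80d, a ratio of 2.89 (2.36 to 3.56). KIF20A, a motor of the central spindle, was at 4.54, 30.5 and 11.7 CPM, a ratio of 2.60 (2.16 to 3.14). For CDC20 replicate 3 was closer to replicate 1 than to replicate 2.

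Furthest toward replicate 3 was the mitotic gene BIRC5, a partner of AURKB, with a ratio of replicate 2 to replicate 3 of 0.558 (0.450 to 0.689). CDT1 had a ratio of 0.613 (0.409 to 0.914), MCM4 of 0.677 (0.563 to 0.815), and AURKB of 0.697 (0.514 to 0.942). CCNE2 was an S phase gene on the other side, with a ratio of 2.35 (1.75 to 3.18). Against replicate 1, BUB1B was at least 42.3-fold higher in replicate 2 and at least 40.1-fold higher in replicate 3, computed against 3 fragments in replicate 1 and without the counting error of the higher library. With that error included, the exact intervals began at 34.1 and 32.2. The ratio of replicate 2 to replicate 1 was 13.0 for TOP2A, 10.8 for CCNB1 and 5.5 for TYMS, while for MCM7 it was 0.737 (0.684 to 0.794).

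**Figure D4:**
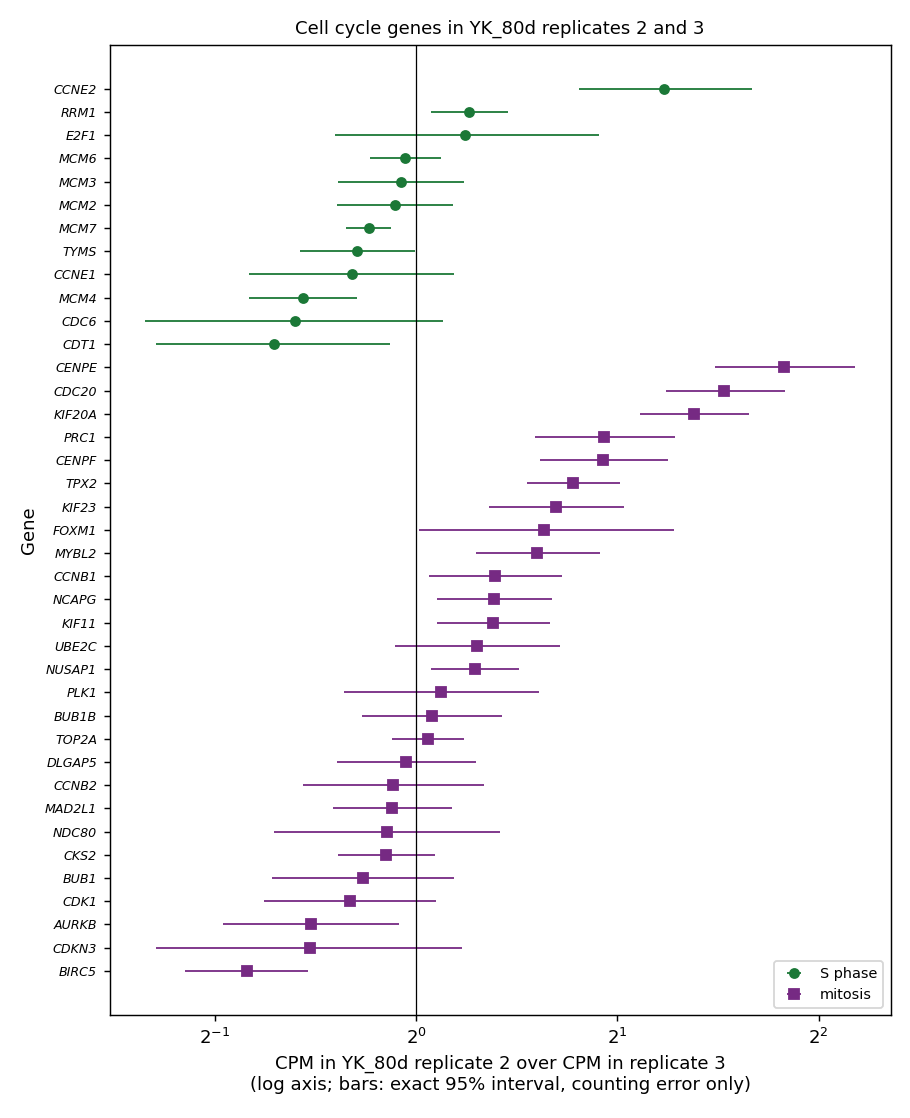
The horizontal axis (log scale) is the CPM in YK_80d replicate 2 divided by that in replicate 3, with exact 95% intervals for counting error, and each row is a gene (circles S phase, squares mitosis). The intervals of 13 mitotic genes lie above 1 and of 2 below it, and those of 2 S phase genes lie above 1 and of 4 below it.

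The breeds were compared at each age, and the ages within each breed, in 1 edgeR fit over all 12 libraries and 15425 genes. Differences are log2 fold changes with their SE, GS minus YK or 80 d minus 9 d. Adjusted p-values are from edgeR's quasi-likelihood test with Benjamini-Hochberg adjustment over all genes tested, with 0.05 as the threshold. The comparisons share groups: GS_80d and YK_80d each enter 1 breed and 1 age comparison, so their values are set side by side and are not independent.

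At 80 d, 3 of 39 genes (7.69%) passed the threshold, all of them lower in GS, where 6.12% of all genes passed in either direction and 2.95% were lower. They were NDC80 at -3.0 ± 0.70 (adjusted p = 0.0293), MCM6 at -1.58 ± 0.37 (adjusted p = 0.0302) and TYMS at -2.40 ± 0.58 (adjusted p = 0.0320). NDC80 averaged 0.361 ± 0.124 CPM in GS_80d and 2.91 ± 1.75 CPM in YK_80d (SD, n = 3 each). MCM6 averaged 9.94 ± 2.33 CPM in GS_80d and 29.7 ± 13.0 CPM in YK_80d, and TYMS 2.0 ± 0.706 CPM in GS_80d and 10.6 ± 7.27 CPM in YK_80d. NDC80 and MCM6 did not overlap between the breeds, and TYMS did. DESeq2 called 20 genes, 19 of them lower in GS, where it called 12% of all genes. limma-voom called MCM6 (lower in GS, adjusted p = 0.0477) and CCNB2 (higher in GS, adjusted p = 0.0466), with NDC80 at an adjusted p of 0.0729 and TYMS at 0.116. Of all genes limma-voom called 6.39%.

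The rest of the set was mostly lower in GS without passing the threshold. The log2 difference was negative for 36 of 39 genes, against 51.2% of all genes, and its median was -1.46, against -0.02 over all genes. It was -1.26 over the S phase genes and -1.48 over the mitotic genes. An unadjusted p under 0.05 with a lower level in GS was found for 23 of 39 genes (59.0%), against 12.6% of all genes. The groups did not overlap for 8 genes that were lower in GS (20.5%), against 14.4% of all genes, and for 1 that was higher, CCNB2, against 17.1% of all genes.

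Next to the threshold, UBE2C differed by -2.35 ± 0.65 (edgeR adjusted p = 0.0516), CCNB2 by 1.61 ± 0.48 (adjusted p = 0.0674) and CCNB1 by -2.04 ± 0.62 (adjusted p = 0.0712). The helicase subunits MCM7 and MCM2 stood at -0.56 (adjusted p = 0.0781) and -1.57 (adjusted p = 0.0966) in the same edgeR fit. CKS2 stood at -1.33 (adjusted p = 0.0826), TOP2A at -2.45 and MYBL2 at -1.33 (edgeR adjusted p = 0.0933 for both). AURKB, CDK1, PLK1, E2F1 and FOXM1 had differences of -1.39, -1.99, -1.32, -1.46 and -1.38, with edgeR adjusted p-values of 0.108, 0.128, 0.180, 0.238 and 0.377. CCNE1 at 0.41, CCNE2 at -0.33 and CDKN3 at -0.51 had edgeR adjusted p-values of 0.488, 0.683 and 0.627. The 3 positive differences were those of CCNB2, CCNE1 and RRM1 (0.10).

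The 80 d difference depended on which YK_80d libraries were kept. Without replicates 2 and 3, 14 of 39 differences were negative and the median was 0.38, with NDC80 at -1.30, MCM6 at -0.57, TYMS at -0.25 and CCNB2 at 3.28. These values set GS_80d against YK_80d replicate 1 alone, the lowest library of its group for 37 of 39 genes, so they restate that order and are given as a description. Without replicate 1 instead, 17 genes passed, all lower in GS (43.6%, against 4.95% of all genes). This count follows from the same order, since the lowest YK_80d library was taken out, and is likewise a description. When any single GS_80d library or YK_80d replicate 2 or 3 was left out, NDC80, MCM6 and TYMS fell short of the threshold, with adjusted p up to 0.132. Over all single libraries left out, their differences ran from -3.44 to -2.69 for NDC80, -1.91 to -1.38 for MCM6 and -2.88 to -1.98 for TYMS.

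Markers of other cell types also differed at 80 d. Of the 22 T and NK cell marker IDs 20 had a negative difference, 7 of them past the threshold, with a median of -2.15. Of 10 macrophage markers 8 had a negative difference, 2 of them past the threshold, and they summed to 191 to 402 CPM in GS_80d and 224 to 566 CPM in YK_80d. Of 8 adipocyte markers 7 had a positive difference, 3 of them past the threshold, with a median of 1.10, and they summed to 21126 to 23982 CPM in GS_80d and 12729 to 17579 CPM in YK_80d. The part of these cells in the result was not tested. Leaving out the 3 libraries with muscle transcripts, among them YK_80d replicate 3, left none of the 39 genes past the threshold. Of all genes 1.86% passed then, against 6.12% in the full fit, and 36 of the 39 differences were negative.

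**Figure D5:**
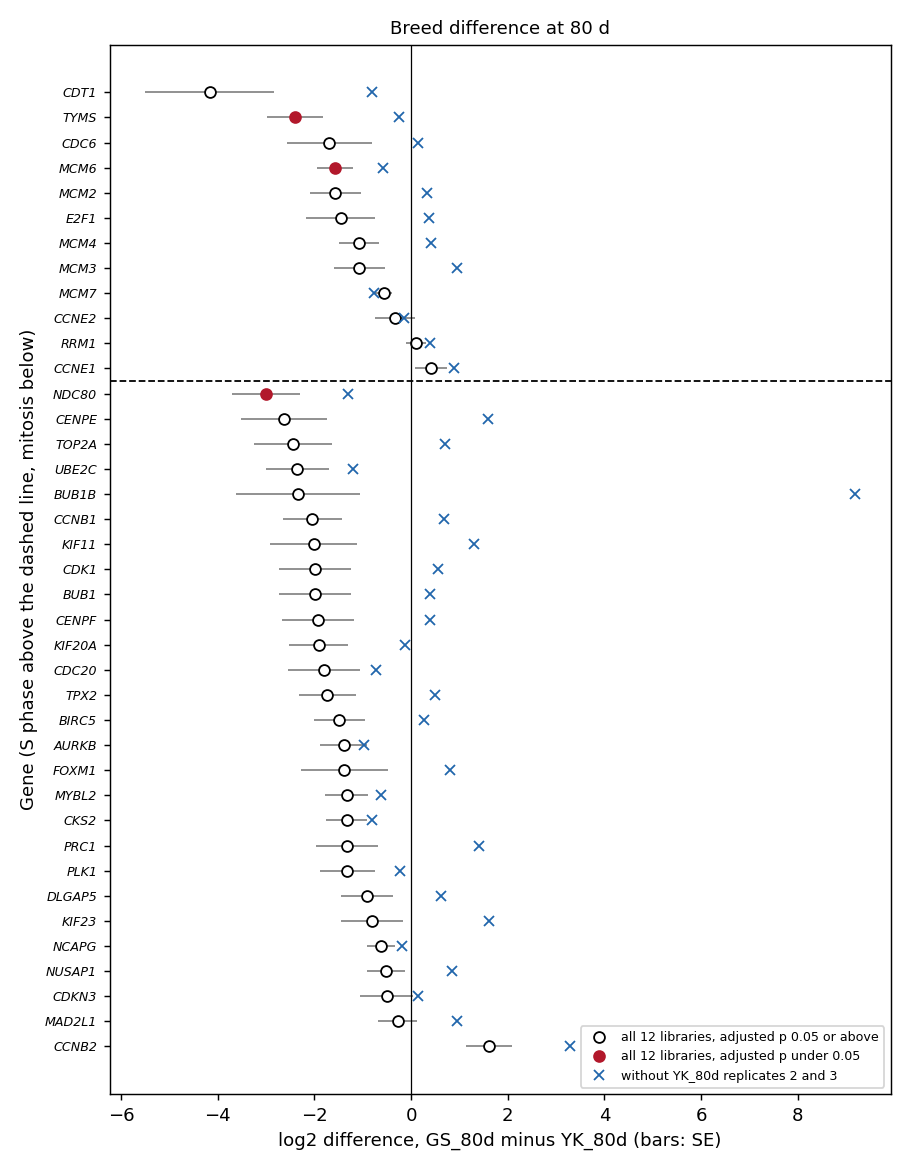
The horizontal axis is the log2 difference GS_80d minus YK_80d for each of the 39 genes, with bars of 1 SE; filled circles passed an adjusted p of 0.05, open circles did not, and crosses give the difference without YK_80d replicates 2 and 3, that is, against replicate 1 alone. Circles lie left of 0 for 36 genes and crosses for 14, and the cross of BUB1B is a fitted value against a library at 0, which gives no size of the difference.

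At 9 d none of the 39 genes passed in edgeR, where 1.02% of all genes did. DESeq2 called CCNB2 alone (4.86% of all genes) and limma-voom none (0.804%). An unadjusted edgeR p under 0.05 was found for 2 genes, both higher in GS (7.42% of all genes were). CCNB2 was higher in GS by 2.09 ± 0.49 (edgeR adjusted p = 0.0674) and averaged 11.6 ± 1.63 CPM in GS_9d and 2.72 ± 0.694 CPM in YK_9d (SD, n = 3 each). CCNE2 was at 1.17 ± 0.42 (adjusted p = 0.221 in edgeR) and CCNE1 at 0.70 (adjusted p = 0.361 in edgeR). MYBL2 at -0.79, E2F1 at -1.15 and MCM6 at -0.52 had edgeR adjusted p-values of 0.460, 0.508 and 0.585.

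Over the set the median difference at 9 d was -0.06, against 0.01 over all genes, with 24 of 39 negative (49.3% of all genes). The groups did not overlap for E2F1, CCNB1 and MYBL2, which were lower in GS (7.69%, against 9.54% of all genes), and for CCNE1 and CCNB2, which were higher (5.13%, against 8.93%). TYMS was at -0.01, CDK1 at -0.02 and TOP2A at 0.13 on the log2 scale.

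Between the ages in GS, none of the 39 genes passed in edgeR, where 2.65% of all genes did. DESeq2 called NDC80 and MCM7, both lower at 80 d (7.97% of all genes in either direction), and limma-voom called none (3.26%). The differences leaned one way: 33 of 39 were negative, against 50.3% of all genes, with a median of -0.74, against -0.00 over all genes. An unadjusted edgeR p under 0.05 was found for 6 genes, all lower at 80 d (15.4%, against 10.5% of all genes). The groups did not overlap for 17 genes that were lower at 80 d (43.6%, against 16.5% of all genes) and for none that was higher (17.2% of all genes). These 17 were 6 S phase genes, TYMS, MCM2, MCM4, MCM6, MCM7 and CDT1, and 11 mitotic genes, among them CDK1, CCNB1, BUB1, NDC80 and BIRC5.

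MCM7 averaged 69.5 ± 4.61 CPM in GS_80d and 107 ± 10.8 CPM in GS_9d (SD, n = 3 each), a difference of -0.62 ± 0.18 (edgeR adjusted p = 0.0810). NDC80 differed by -2.12, UBE2C by -1.73 and CDT1 by -2.98, with edgeR adjusted p-values of 0.115, 0.159 and 0.218. MCM6 at -0.82 and CDC20 at -1.63 followed, at 0.243 and 0.25. Lists of markers of other cells went different ways between the ages in GS. Of 22 T and NK cell marker IDs 13 were lower at 80 d and 9 higher, none past the threshold. Of 13 B cell and plasma cell markers 5 were lower, 1 of them past the threshold, and 8 higher. Of 8 adipocyte markers 3 were lower and 5 higher, none past the threshold. All 10 macrophage markers were lower, 4 of them past the threshold, with MARCO at 0 in the 3 GS_80d libraries. Their sum was 191 to 402 CPM in GS_80d and 795 to 858 CPM in GS_9d. Of 9 adipose progenitor markers 7 were lower, none past the threshold, and they summed to 19051 to 21019 CPM in GS_80d and 27004 to 49261 CPM in GS_9d. The part of these cells in the result was not tested.

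Between the ages in YK, none of the 39 genes passed in edgeR, DESeq2 or limma-voom. Of all genes 1.21% passed in edgeR, 4.64% in DESeq2 and 0.467% in limma-voom. The differences were positive for 35 of 39 genes and negative for 4, where 49.9% of all genes were negative. Their median was 0.55, against 0.00 over all genes. An unadjusted edgeR p under 0.05 was found for 2 of the 39, both higher at 80 d (6.96% of all genes were). CCNE2 differed by 1.16 (edgeR adjusted p = 0.233), averaging 7.72 ± 3.42 CPM in YK_80d and 3.45 ± 0.869 CPM in YK_9d, and was the 1 gene of the 39 (2.56%, against 7.77% of all genes) whose groups did not overlap. TYMS at 1.37, NDC80 at 1.41 and CENPE at 1.62 had edgeR adjusted p-values of 0.303, 0.383 and 0.459, and DLGAP5 at 0.95 and CKS2 at 0.68 had 0.490 and 0.551. With YK_80d replicate 1 as the single YK_80d library the median was -1.19 and 36 of 39 differences were negative, a description that follows from its low levels. In YK all 22 T and NK cell marker IDs had a positive difference, 12 of them past the threshold. Negative differences were found for 8 of 10 macrophage markers, 2 of them past the threshold, and for 8 of 9 adipose progenitor markers, none past it. The part of these cells in the result was not tested.

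The interaction, the age difference in GS minus that in YK, passed the edgeR threshold for none of the 39 genes and for 0.0648% of all genes. DESeq2 called NDC80 (2.05% of all genes) and limma-voom none (0.0389%). An unadjusted edgeR p under 0.05 was found for 8 genes, all negative (20.5%, against 6.37% of all genes). The estimate was negative for 38 of 39 genes, against 49.8% of all genes, with a median of -1.39. NDC80 had the smallest edgeR adjusted p, 0.219, at -3.53 ± 0.95, followed by TYMS at -2.40 (0.317), MCM7 at -0.68 (0.347), CCNE2 at -1.50 (0.382), BIRC5 at -1.74 (0.416) and TOP2A at -2.58 (0.423). With YK_80d replicate 1 as the single YK_80d library the median was 0.40 and 12 of 39 estimates were negative, likewise a description. Of the 22 T and NK cell marker IDs 21 had a negative estimate, and their part in the result was not tested. Among the 6 genes named for the interaction, YK_80d replicate 1 was not the lowest of its group for MCM7 and CCNE2, neither past the threshold. It was the lowest for 37 of the 39 genes.

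Genes of the same pathway outside the set were read from 4 lists: 48 further S phase genes, 54 further mitotic genes, 11 genes of the G1 phase and 15 inhibitors of the cycle. At 80 d, 3 of 48 S phase genes passed, all lower in GS (6.25%, against 6.12% of all genes in either direction), with 40 of 48 negative. CDC45, a partner of the MCM helicase, was at 11.3, 63.1 and 10.3 CPM in GS_80d, 162, 120 and 231 CPM in YK_80d, 10.4, 5.19 and 10.1 CPM in GS_9d, and 269, 364 and 251 CPM in YK_9d. It was lower in every GS library than in any YK library at both ages, by -2.60 ± 0.64 at 80 d (edgeR adjusted p = 0.0374) and -5.11 ± 0.72 at 9 d (adjusted p = 0.0160). YK_80d replicate 1 was not low for CDC45, unlike for most of the 39 genes. In YK_9d all 48 genes together summed to 707 to 828 CPM, so CDC45 was a large part of that sum. Whether its row holds reads of an overlapping gene was not tested.

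The other S phase genes past the threshold at 80 d were RFC2, a subunit of the clamp loader, at -1.31 (edgeR adjusted p = 0.0150), and CHAF1B, a histone chaperone subunit, at -2.14 (edgeR adjusted p = 0.0366). Among the 54 mitotic genes 4 passed at 80 d, all lower in GS (7.41%, against the same 6.12%), with 52 of 54 negative. HMGB2, a chromatin protein abundant in dividing cells, was at 40.6, 49.2 and 36.7 CPM in GS_80d, 86.8, 120 and 176 CPM in YK_80d, 111, 135 and 108 CPM in GS_9d, and 158, 97.3 and 165 CPM in YK_9d, a difference at 80 d of -1.60 ± 0.28 (edgeR adjusted p = 0.00825). KIF2C, a microtubule depolymerase, stood at -3.11, NUF2, a partner of NDC80, at -2.0, and the checkpoint gene MAD1L1 at -0.79 (edgeR adjusted p = 0.0294, 0.0291 and 0.0303). The T and NK cell values given above stand beside these genes as well. Leaving out single libraries ended the 80 d call of each of these genes but HMGB2, whose adjusted p reached 0.0442, and against YK_80d replicate 1 alone HMGB2 was at -1.04 and CDC45 at -2.52. The 9 d call of CDC45 was lost without GS_9d replicate 1 or 2 or YK_9d replicate 2 (edgeR adjusted p up to 0.0850).

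Of the 11 G1 genes none passed at 80 d in edgeR, where 6.12% of all genes did. At an unadjusted edgeR p under 0.05, 1 was lower and 1 higher, against 1937 lower and 1733 higher of all 15425 genes. Among the inhibitors, CDKN1A, the gene for p21, was at 11.6, 12.4 and 21.8 CPM in GS_80d and 5.56, 3.65 and 3.68 CPM in YK_80d, without overlap, a difference of 1.83 ± 0.52 (edgeR adjusted p = 0.0594). Between the ages in GS, HMGB2 was lower at 80 d at -1.49 (edgeR adjusted p = 0.0193, and up to 0.0820 without any 1 library but GS_9d replicate 3), and CCND1, the cyclin D1 of G1 phase, was higher at 80 d at 1.43 ± 0.29 (edgeR adjusted p = 0.0258). CCND1 was at 23.5, 34.7 and 50.6 CPM in GS_80d and 12.5, 12.8 and 15.2 CPM in GS_9d, against 39.96, 35.7 and 42.9 CPM in YK_80d and 23.9, 39.7 and 22.9 CPM in YK_9d. CCND1 lost its call without any 1 of the 3 GS_9d libraries or GS_80d replicates 2 and 3 (adjusted p up to 0.104). In YK none of the genes of these 4 lists passed between the ages in edgeR, where 1.21% of all genes did. At an unadjusted edgeR p under 0.05, 5 of 48 S phase genes and 2 of 54 mitotic genes were higher at 80 d. So were 1 of 11 G1 genes and 1 of 15 inhibitors, and 2 G1 genes were lower. Of all 15425 genes 6.96% were higher and 1006 lower at this p, and the small counts of the lists are given as a description.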

How the data were processed

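RNA-seq libraries of pig back fat, 3 per breed and age, were made from TRIzol-extracted total RNA with a stranded KAPA kit, per the labels' protocols. The authors deposited 1 table of estimated counts (expected counts) per pig Ensembl gene, whole numbers with no scaling between libraries. The submitters' processing notes name the build mm10, a mouse build, while the gene IDs are of pig, so no coordinates are given. No aligner, counting tool or use of strand is given in the sources used here, and overlapping or antisense genes may share reads. Low values pile up near multiples of 3.76 units (3354 values of 4, against 1233 of 3 and 795 of 5), so fragments are the deposited values divided by 3.76, about 12083904 to 16221635 per library. Counting intervals and limits use these fragments and cover counting error only.

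The supplied table of gene names gave a symbol to 14692 of 24358 genes. Genes were kept by edgeR's filterByExpr, which left 15425. Libraries were scaled with TMM (0.888 to 1.10), and all 12 were fitted together in edgeR 4.0.16 under R 4.3.3 (glmQLFit, robust, 8 residual degrees of freedom, common dispersion 0.267) on the deposited values as whole numbers. Tests were two-sided with Benjamini-Hochberg adjustment over all genes tested. The SE was obtained as the log2 fold change over the root of the F statistic. Log2 CPM used a prior count of 2. The script was tested on simulated data. Alternatives were other scalings, filters and library sets, DESeq2 1.42.0, limma-voom (limma 3.58.1) and a replicate block.

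The genes and lists were chosen with earlier results of these data known. Named genes are, per comparison, those past the threshold, filled up to 6 by the smallest adjusted p, 18 genes reported whatever their result (4 of which have no ID here), up to 4 genes past the threshold from each other list, and CDC45, CCND1 and CDKN1A. Genes named for their spread within YK_80d or for groups that do not overlap, BUB1B, KIF20A, MCM3, MCM4, CDC6 and RRM1 among them, were chosen after their values were seen. T and NK cell, macrophage, muscle and other markers were read as transcript levels, not as numbers of cells. A result of the inhibitor list is not reported here.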

Additional observations from a re-analysis of the deposited data

How the results depend on the processing

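The number of cell cycle genes past the threshold for the breed difference at 80 d was 3 in the reported edgeR fit (6.12% of all genes). It was 20 with DESeq2 (12% of all genes), 5 with a replicate block (5.24%) and 1 when only the libraries of the comparison were fitted (5.81%). Without the 3 libraries with muscle transcripts it was 0 (1.86%), and it ran from 0 to 17 when 1 library was left out. It was 0 without GS_80d replicate 1 (1.61%) or 2 (2.26%) or YK_80d replicate 2 (5.77%) or 3 (2.11%). Without YK_80d replicate 1 it was 17 (4.95%). That library was the lowest of its group for 37 of 39 genes, so this count restates that order. With another scaling, another filter or values divided to fragments it was 3 or 4 (4.49% to 8.53% of all genes). With limma-voom it was 2 (6.39%), MCM6 and CCNB2, of which MCM6 is among the reported 3. The other comparisons had 0 in the reported fit. For them DESeq2 called 1 gene at 9 d (4.86% of all genes), 2 between the ages in GS (7.97%) and 1 for the interaction (2.05%). Fitting only the libraries of the comparison gave 1 between the ages in GS (7.25%). Leaving out 1 library gave 0 to 1 between the ages in YK (up to 1.54%) and for the interaction (up to 0.567%). The S phase minus mitotic median of the log2 differences was 0.22 at 80 d and -0.25 without YK_80d replicates 2 and 3. Between the ages in YK it was -0.32, then 0.45 without YK_80d replicates 2 and 3, 0.17 without YK_9d replicates 2 and 3, and -0.43 to 0.18 with 1 library left out.

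Leaving out 2 replicates of a group leaves 1 library there, which is assumed to vary like the other groups. Without YK_80d replicates 2 and 3 the sign turned for CCNB1 at 80 d (0.68), for TYMS (-0.78), NDC80 (-0.29), CENPE (-2.60) and DLGAP5 (-0.59) between the ages in YK, and for BIRC5 (0.0075) and TOP2A (0.58) in the interaction. MCM6 at 9 d turned to 0.021 without YK_9d replicates 2 and 3, the libraries with the most skin transcripts. Over 41 single-gene results and 737 alternatives, 615 kept direction and side of the threshold, 95 lost a call, 19 gained one and 8 turned. The labels do not say whether equal replicate numbers pair the samples. Deviations from the group means correlated at -0.22 to 0.24 over 18 same-numbered pairs and -0.35 to 0.34 over 36 others. With 3 libraries per group these correlations cannot decide whether samples were paired. The replicate block changed no call of the set in the other comparisons. The cause of these shifts was not tested. Depth limits CDT1, CDC6, NDC80, FOXM1 and E2F1, which rest on few fragments in some libraries.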
